A study of Mus musculus with 4 samples.

Results

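Enzymes of glycolysis, the tricarboxylic acid (TCA) cycle and the shuttles that carry reducing equivalents into mitochondria were described here in the prefrontal cortex of mice that overexpress human synaptic acetylcholinesterase (AChE). Probe sets were chosen by the gene symbol of the platform annotation, for glycolytic enzymes from hexokinase to lactate dehydrogenase, pyruvate dehydrogenase and its kinases, pyruvate carboxylase, TCA cycle enzymes, glutamate oxaloacetate transaminases, glycerol phosphate dehydrogenases and glyoxalase 1, together with the array's own control probe sets for Gapdh and pyruvate carboxylase. The choice gave 65 probe sets of 43 genes, of 12488 probe sets and 8252 singly named genes in all. Of these, 10 were control probe sets and 55 were ordinary ones.

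The control group consisted of 2 arrays, each hybridised with prefrontal cortex RNA pooled from 4 female FVB/N mice. The transgenic group consisted of 2 arrays of pools from 4 female mice that overexpress the human synaptic AChE. The labels name neither the promoter that drives the transgene, nor the strain background of the transgenic mice, nor the age of either group, so a difference of strain cannot be told apart from the transgene. The labels do not say that the 2 pools within a group were made from separate mice. The p-values here therefore rest on how far the 2 arrays of a group lie apart, a spread that may be technical. The fit also moderates that spread by that of other probe sets of similar intensity, with 7.51 prior against 2 residual degrees of freedom.

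Glycolysis splits glucose into pyruvate in the cytosol, and neurons and glia use it together with the mitochondrial TCA cycle to meet the high energy demand of the brain. Lactate dehydrogenase interconverts pyruvate and lactate, while the pyruvate dehydrogenase complex passes pyruvate on to the TCA cycle. NADH made in the cytosol reaches the respiratory chain through the glycerol phosphate shuttle, which pairs the cytosolic enzyme Gpd1 with the mitochondrial enzyme Gpd2, or through the malate-aspartate shuttle, which uses malate dehydrogenases and aspartate transaminases. Methylglyoxal, a reactive by-product of triose phosphates, is removed by a pathway that starts with glyoxalase 1 (Glo1).

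Gpd2 and Glo1 rose in the transgenic pools. Less firmly, hexokinase 1 rose and Aldoa, Ldha, Pdhb and Idh2 fell by 1.35- to 1.70-fold. Neither the hexokinase 1 rise nor any of the 4 falls passed without the intensity filter or without the intensity trend. Without the filter the Glo1 rise did not pass at either of its probe sets, though it passed without the trend. The second probe set of Aldoa had a log2 change of -0.04. The tested probe sets that did not pass had log2 changes between -0.51 and 0.59. Of the 55 ordinary probe sets, 41 passed the intensity filter (a mean over the 4 arrays above 49.4) and were tested, and these covered 35 genes. The test passed 4 as higher, of 3 genes, and 4 as lower, of 4 genes, at an adjusted p under 0.05 (limma with Benjamini-Hochberg adjustment over 7453 tested probe sets). Each count is 9.76% of the 41, against 5.46% of all tested probe sets that were higher and 4.56% that were lower, and a gap of that size rests on very few probe sets. The median log2 change was -0.09 over the 41 tested probe sets and -0.03 over all tested probe sets. The control and transgenic arrays did not overlap for 25 of the 41, or 61.0%, against 53.7% of all tested probe sets. At an unadjusted p under 0.05 limma called 15 of the 41, or 36.6%, against 24.3% of all tested probe sets. The absolute log2 change was under 0.25 for 23 of the 41, and for 3956 of all 7453. Since the pools hold mixed cell types, fewer cells of a type and less RNA per cell cannot be told apart.

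**Figure D1:**
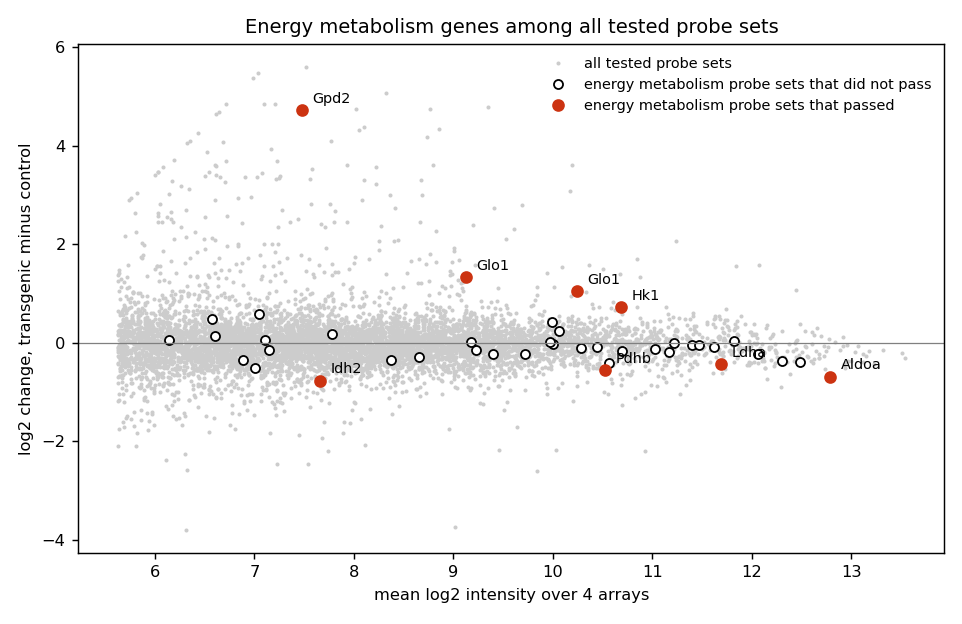
Log2 change (transgenic minus control, vertical axis) against the mean log2 intensity over the 4 arrays (horizontal axis) for all 7453 tested probe sets (grey points), with the 33 energy metabolism probe sets that did not pass (open circles) and the 8 that passed (filled circles, named). Gpd2, at 4.73, lies far above the other energy metabolism probe sets, and the open circles lie between -0.51 and 0.59.

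The mitochondrial glycerol phosphate dehydrogenase Gpd2, which hands electrons from glycerol 3-phosphate to the respiratory chain, was read by 1 probe set, 98984_f_at. The arrays gave intensities of 31.3 and 38.2 in control samples, and 932.0 and 902.0 in transgenic samples. Both control arrays thus lay a little above the floor of 19.675 set on low values, and both transgenic arrays lay far above them. Group means were 34.8 ± 4.88 and 917 ± 21.2 (SD over the 2 arrays of each group), a rise of 26.5-fold, or 4.73 ± 0.19 on the log2 scale (SE; adjusted p = 3.85e-07). Its control values lay under the intensity filter, so that it was tested only because of its transgenic values, and the fold rests on a control level near the floor. With the floor raised to the 40th percentile the log2 change was 4.17, and with log2(value + 16) in place of a floor it was 4.20. It ranked 11 among all tested probe sets by the size of its rise. The letter f in the name marks, in the array maker's naming, a probe set made for a family of similar sequences, and no other probe set of the gene was on the array to compare it with.

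The cytosolic partner of that shuttle, Gpd1, which makes glycerol 3-phosphate from dihydroxyacetone phosphate, read 965.3 and 869.9 on the control arrays, and 871.8 and 697.7 on the transgenic ones at 92592_at. Its groups overlapped, and its log2 change of -0.23 ± 0.15 did not pass (adjusted p = 0.386). The other Gpd1 probe set (161753_f_at) was dim, at 12.7 to 38.1 over the 4 arrays, and was not tested. The 2 enzymes of the shuttle therefore gave a log2 change of 4.73 and one of -0.23, each from a single tested probe set.

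Glyoxalase 1 was the gene of the group with 2 probe sets that both passed. At 93268_at Glo1 read 345.3 and 357.3 on the control arrays against 848.5 and 926.6 on the transgenic arrays, a 2.52-fold rise (log2 change 1.34 ± 0.14, adjusted p = 0.000179). At 93269_at it read 824.8 and 862.5 in control samples, and 1805.4 and 1670.6 in transgenic samples, a 2.06-fold rise (log2 change 1.04 ± 0.12, adjusted p = 0.000398). The probe sets are listed under different source sequences, and at both of them every transgenic array lay above every control array. Hagh, the enzyme that acts after Glo1 in methylglyoxal removal, had a log2 change of 0.07 and did not pass (adjusted p = 0.825). Gpd2 and Glo1 passed in each fit with 1 array left out, with a lowest log2 change of 4.59 for Gpd2 and of 0.99 for Glo1. Each such fit leaves 1 array in a group, so its spread comes from the 2 arrays of the other group, moderated over all probe sets, and the lone array is assumed to vary alike. Without the filter on dim probe sets, Gpd2 passed (adjusted p = 0.0384) while Glo1 did not (0.0599 and 0.0681).

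**Figure D2:**
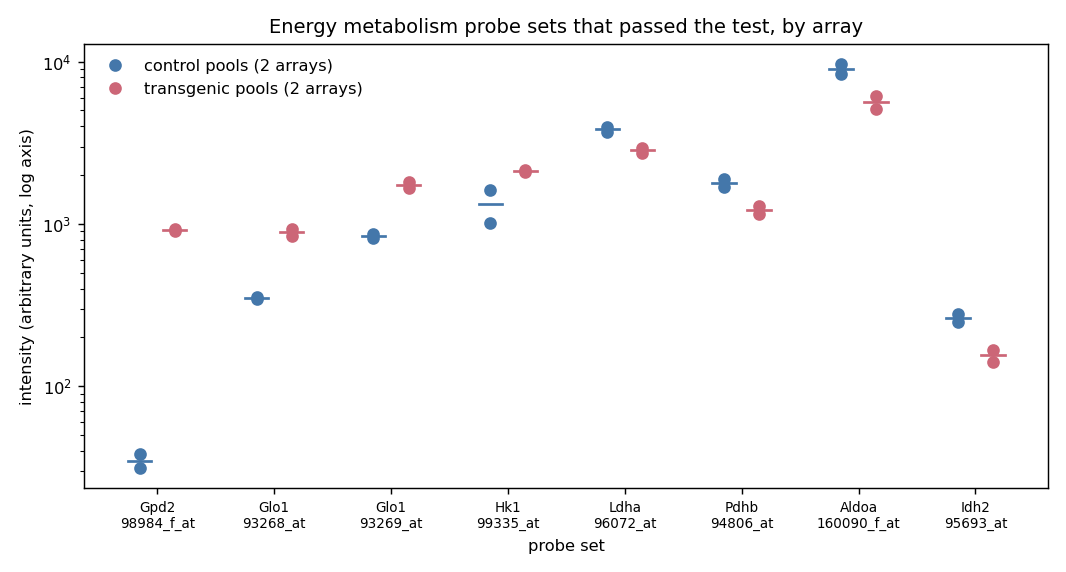
Intensity on a log axis (arbitrary units) of the 8 energy metabolism probe sets that passed, with 1 point per array (2 control pools, 2 transgenic pools) and a line at each group's mean, ordered from the largest rise to the largest fall. The arrays of the groups do not overlap in any of the 8, and the control arrays of Hk1 (1008.6 and 1629.8) lie farther apart than those of the other genes.

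Hexokinase traps glucose in the cell by phosphorylating it, and Hk1 is its main form in brain. Hk1 (99335_at) read 1008.6 and 1629.8 on the control arrays, and 2090.4 and 2135.1 on the transgenic ones. The transgenic arrays agreed closely and both lay above the control arrays, which differed widely. The rise was 1.65-fold (log2 change 0.72 ± 0.19, adjusted p = 0.0454). It rested in part on control replicate 1, without which the log2 change was 0.37 (adjusted p = 0.203), and it did not pass without transgenic replicate 1 (0.185) or transgenic replicate 2 (0.236) either. Hk2, the form typical of muscle and fat, read 31.6 or less on every array at both of its probe sets and was not tested.

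Phosphofructokinase catalyses the committed step of glycolysis, and none of its probe sets passed. The muscle form Pfkm read 2454.3 and 2309.9 on the control arrays against 2212.7 and 2564.5 on the transgenic arrays, a log2 change of 0.00 ± 0.12. The platelet form Pfkp had log2 changes of 0.02 ± 0.14 and -0.15 ± 0.14 at its 2 probe sets, which share a source sequence. The liver form Pfkl read 2069.5 and 1483.0 in control samples, and 1401.9 and 1232.7 in transgenic samples, with the control arrays far apart (log2 change -0.41 ± 0.16, adjusted p = 0.152). Without control replicate 2 Pfkl passed, at a log2 change of -0.65 (adjusted p = 0.00893). Among the enzymes that set the level of fructose 2,6-bisphosphate, an activator of phosphofructokinase, Pfkfb3 had 0.48 ± 0.27 at 160641_at (adjusted p = 0.307). Pfkfb2 read 38.4 and 21.3 on the control arrays, and 5.3 and 5.1 on the transgenic ones. Its mean lay under the intensity filter, so Pfkfb2 was not tested.

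Aldolase A, which splits fructose 1,6-bisphosphate into triose phosphates, gave different answers at its 2 probe sets. At 160090_f_at Aldoa read 8376.9 and 9641.2 on the control arrays against 6115.1 and 5086.4 on the transgenic arrays, lower by a factor of 1.61 (log2 change -0.69 ± 0.12 SE, adjusted p = 0.00569). At 161889_f_at it read 2402.2 and 3096.1 in control samples, and 2976.7 and 2375.3 in transgenic samples, with overlapping groups and a log2 change of -0.04 ± 0.15 that did not pass (adjusted p = 0.918). The probe sets come from different source sequences, and the names of both carry the letter f of a probe set for similar sequences. Without transgenic replicate 2 the adjusted p of the first was 0.0546. Aldoc, the aldolase enriched in astrocytes, had -0.23 and did not pass (adjusted p = 0.198). Triose phosphate isomerase, Tpi1, read 6099.8 and 5436.6 on the control arrays, and 4585.9 and 4299.9 on the transgenic ones. Its groups did not overlap, and its log2 change of -0.37 ± 0.10 did not pass (adjusted p = 0.0528). It passed with median scaling (0.0484), log2(value + 16) in place of a floor (0.0499), the 60th percentile filter (0.0369), the robust prior (0.0449) and the replicate block (0.0276), and in none of the other settings, where the adjusted p was 0.0526 to 0.774.

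From triose phosphate to lactate, 7 of 8 tested probe sets had a log2 change below 0, against 54.2% of all tested probe sets. Of the 8, 0 passed as higher and 1 as lower, against 5.46% and 4.56% of all tested probe sets. The 1 that passed was Ldha, the lactate dehydrogenase subunit typical of tissue that makes lactate. It read 3692.9 and 3954.7 on the control arrays against 2945.8 and 2739.3 on the transgenic arrays, lower by a factor of 1.35 (log2 change -0.43 ± 0.11 SE, adjusted p = 0.0327). Ldhb, the subunit of oxidative tissue, read 1067.3 and 904.5 in control samples, and 1091.6 and 1230.9 in transgenic samples (log2 change 0.24 ± 0.14, adjusted p = 0.329). The difference between the 2 subunits was not tested. Without control replicate 1, control replicate 2, transgenic replicate 1 or transgenic replicate 2 the adjusted p of Ldha was 0.0541, 0.168, 0.0630 and 0.127, so the fall of Ldha passed only with all 4 arrays in the fit.

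Pyruvate kinase, which makes pyruvate and ATP in the last step of glycolysis, was read by 2 probe sets of Pkm. At 96066_s_at the control pools read 6987.4 and 6179.3 and the transgenic pools 5492.1 and 4541.3, with no overlap (log2 change -0.40 ± 0.12, adjusted p = 0.0710). At 162032_f_at the control pools read 3422.7 and 3067.4 and the transgenic pools 3300.3 and 2861.5, with overlap (log2 change -0.08 ± 0.12, adjusted p = 0.749). Neither passed. The neuronal enolase Eno2 had -0.24 ± 0.10 and the muscle enolase Eno3 -0.51 ± 0.20, and neither of them passed (adjusted p = 0.178 and 0.154). Phosphoglycerate kinase, Pgk1, had -0.18 ± 0.11. Phosphoglycerate mutase, Pgam1, was among the steadiest, at 2872.6 and 2892.7 on the control arrays, and 2756.3 and 2828.1 on the transgenic ones.

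Gapdh, the enzyme after triose phosphate isomerase and a widely used reference gene, was measured by the array's control probe sets, which read the start (5'), middle (M) and end (3') of the transcript. They were left out of the fit on which the other results rest, and an alternative fit that kept control probe sets tested them. At the 5' probe set Gapdh read 10657.0 and 10915.5 on the control arrays against 7647.5 and 7870.4 on the transgenic arrays. At the M probe set it read 12523.5 and 11893.0 in control samples, and 8621.0 and 8539.7 in transgenic samples. At the 3' probe set it read 10267.7 and 9155.6 on the control arrays, and 8472.6 and 7752.7 on the transgenic ones. Each of the 3 was lower in both transgenic pools than in both control pools, by 0.48, 0.51 and 0.26 in turn on the log2 scale. In the limma fit that kept them, the 5' and M probe sets passed (adjusted p = 0.00910 and 0.00630) and the 3' probe set did not (0.151). The 3 probe sets of the opposite strand read 10.5 to 136.7. A further probe set, 101214_f_at, is listed for Gapdh together with related sequences and was left out by the rule. It read 5912.1 and 6486.3 on the control arrays against 5490.3 and 4951.3 on the transgenic arrays.

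The ratio of the 3' to the 5' Gapdh signal, a common sign of RNA integrity, was 0.963 and 0.839 in control samples, and 1.11 and 0.985 in transgenic samples. The same ratio for pyruvate carboxylase was 3.90 and 4.58 on the control arrays, and 4.72 and 5.18 on the transgenic ones. Both ratios were higher in each transgenic pool than in each control pool, and their part in the falls was not tested. The arrays of the deposited table share a common scale. Scaled instead to the Gapdh control probe sets, a setting chosen after the data were seen, the median log2 change of all tested probe sets moved from -0.03 to 0.38. Under that scaling 2199 of all tested probe sets were higher and 106 lower, against 407 and 340, and of the tested energy metabolism probe sets 16 were higher and 0 lower, against 4 and 4. The 4 rises remained among the 16, while Aldoa, Ldha, Pdhb and Idh2 did not pass. Relative to that shift of the median, the log2 changes stayed in the same places.

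**Figure D3:**
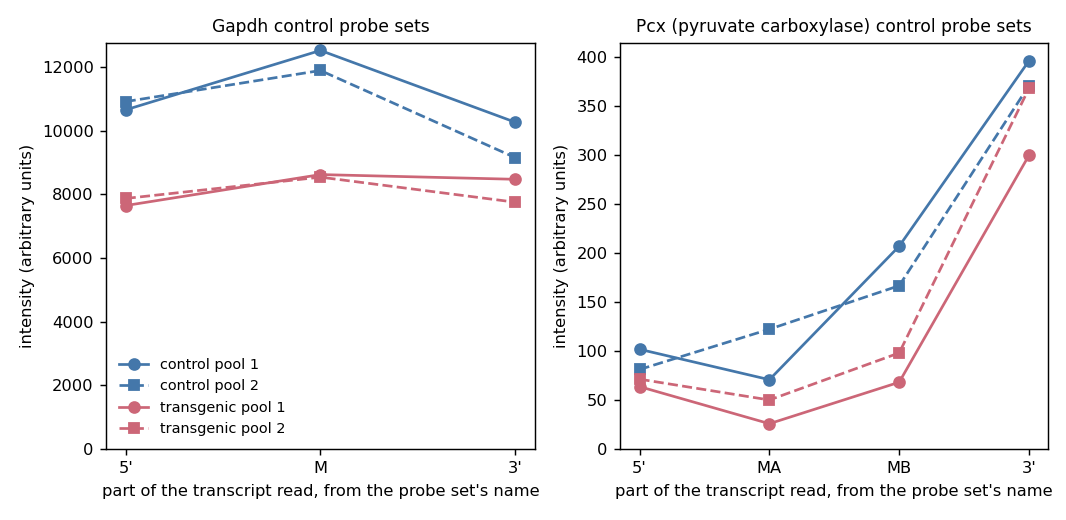
Intensity (arbitrary units, axis from 0) of the control probe sets for Gapdh (left) and pyruvate carboxylase, Pcx (right), in order along the transcript, with 1 line per array (2 control pools, 2 transgenic pools). Both transgenic lines lie below both control lines at each of the 3 Gapdh positions, and the Pcx lines separate most at MA and MB.

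Pyruvate enters the mitochondrial pathways through pyruvate dehydrogenase and pyruvate carboxylase. Pdhb, the beta subunit of the first enzyme of the pyruvate dehydrogenase complex, read 1697.1 and 1879.4 on the control arrays against 1158.7 and 1282.8 on the transgenic arrays at 94806_at. The groups were well apart, and the fall was 1.46-fold (log2 change -0.55 ± 0.12, adjusted p = 0.0202). Its partner in the same enzyme, the alpha subunit Pdha1, read 1959.7 and 2439.8 in control samples, and 1969.9 and 2029.4 in transgenic samples, with overlap (log2 change -0.13 ± 0.13, adjusted p = 0.602). Pdhb did not pass without control replicate 2 (adjusted p = 0.0852), transgenic replicate 1 (0.0994) or transgenic replicate 2 (0.0585). The testis form Pdha2 read 38.8 or less on every array and was not tested.

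Pyruvate dehydrogenase kinases switch the complex off by phosphorylation, and none of the 3 tested ones passed. Pdk3 had a log2 change of -0.30 ± 0.15, Pdk1 had -0.35 ± 0.24 and Pdk4 had -0.15 ± 0.29. For Pdk4 the transgenic arrays lay on either side of the control arrays, at 185.9 and 97.4 against 148.0 and 149.7. Pyruvate carboxylase, which makes oxaloacetate from pyruvate and in brain belongs to astrocytes, was dim at its ordinary probe sets. These had log2 changes of 0.14 ± 0.29 (93308_s_at) and 0.06 ± 0.32 (162288_f_at), and neither passed. Its control probe sets, left out of the fit like those of Gapdh, read lower in the transgenic pools in the middle of the transcript. At MA they read 70.5 and 122.0 on the control arrays, and 25.6 and 49.8 on the transgenic ones, and at MB 206.7 and 166.4 on the control arrays against 67.9 and 97.8 on the transgenic arrays. At the 3' end, where the signal was highest, they read 395.8 and 370.6 in control samples, and 299.4 and 367.7 in transgenic samples. In the limma fit that kept them, MB passed as lower (log2 change -1.19, adjusted p = 0.0160), while MA (-1.38, 0.0726), the 5' probe set (0.380) and the 3' probe set (0.493) did not. The ordinary probe sets of Pcx and its control probe set MB therefore gave different calls. The difference between them was not tested, and their sequences were not used here.

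In the TCA cycle 0 of 11 tested probe sets passed as higher and 1 (9.09%) as lower, against 5.46% and 4.56% of all tested probe sets. That lower share rests on 1 probe set. The median log2 change was -0.03 in the TCA cycle and -0.03 over all tested probe sets. Idh2, the mitochondrial isocitrate dehydrogenase that makes NADPH, read 247.9 and 279.1 on the control arrays, and 168.0 and 141.8 on the transgenic ones, lower by a factor of 1.70 (log2 change -0.77 ± 0.18 SE, adjusted p = 0.0284). It did not pass without control replicate 2 (adjusted p = 0.119), transgenic replicate 1 (0.0605) or transgenic replicate 2 (0.145). Its cytosolic counterpart Idh1 read 206.6 and 207.6 on the control arrays against 225.0 and 242.1 on the transgenic arrays (log2 change 0.17 ± 0.17, adjusted p = 0.589). The NAD-dependent enzyme of the cycle was represented by Idh3a, at 1021.4 and 1044.9 in control samples, and 1029.9 and 994.4 in transgenic samples, and by Idh3g, with a log2 change of -0.11 ± 0.14. Neither passed. The Idh3b probe set read at or below the floor on every array.

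The 2-oxoglutarate dehydrogenase subunit Ogdh, which feeds succinyl-CoA into the cycle, read 861.0 and 899.6 on the control arrays, and 1254.2 and 1097.2 on the transgenic ones. The groups did not overlap, but the log2 change of 0.41 ± 0.13 did not pass (adjusted p = 0.0758). Citrate synthase, Cs, the entry enzyme of the cycle, read 1722.0 and 1778.0 on the control arrays against 1505.5 and 1617.6 on the transgenic arrays (log2 change -0.17 ± 0.11, adjusted p = 0.428). The subunits of succinyl-CoA ligase gave no call. Suclg1 had a log2 change of 0.01 ± 0.12, Suclg2 had -0.36 ± 0.16, and the probe sets of Sucla2 had -0.09 ± 0.12 and 0.59 ± 0.28. The larger Sucla2 value came from a dim probe set (93502_r_at) on which transgenic replicate 2 read 217.1 and the other 3 arrays 105.7 to 120.6. The mitochondrial malate dehydrogenase Mdh2 had 0.04 ± 0.11. The single probe set of Aco1, the cytosolic aconitase, was at or near the floor except on transgenic replicate 2, at 33.3.

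**Figure D4:**
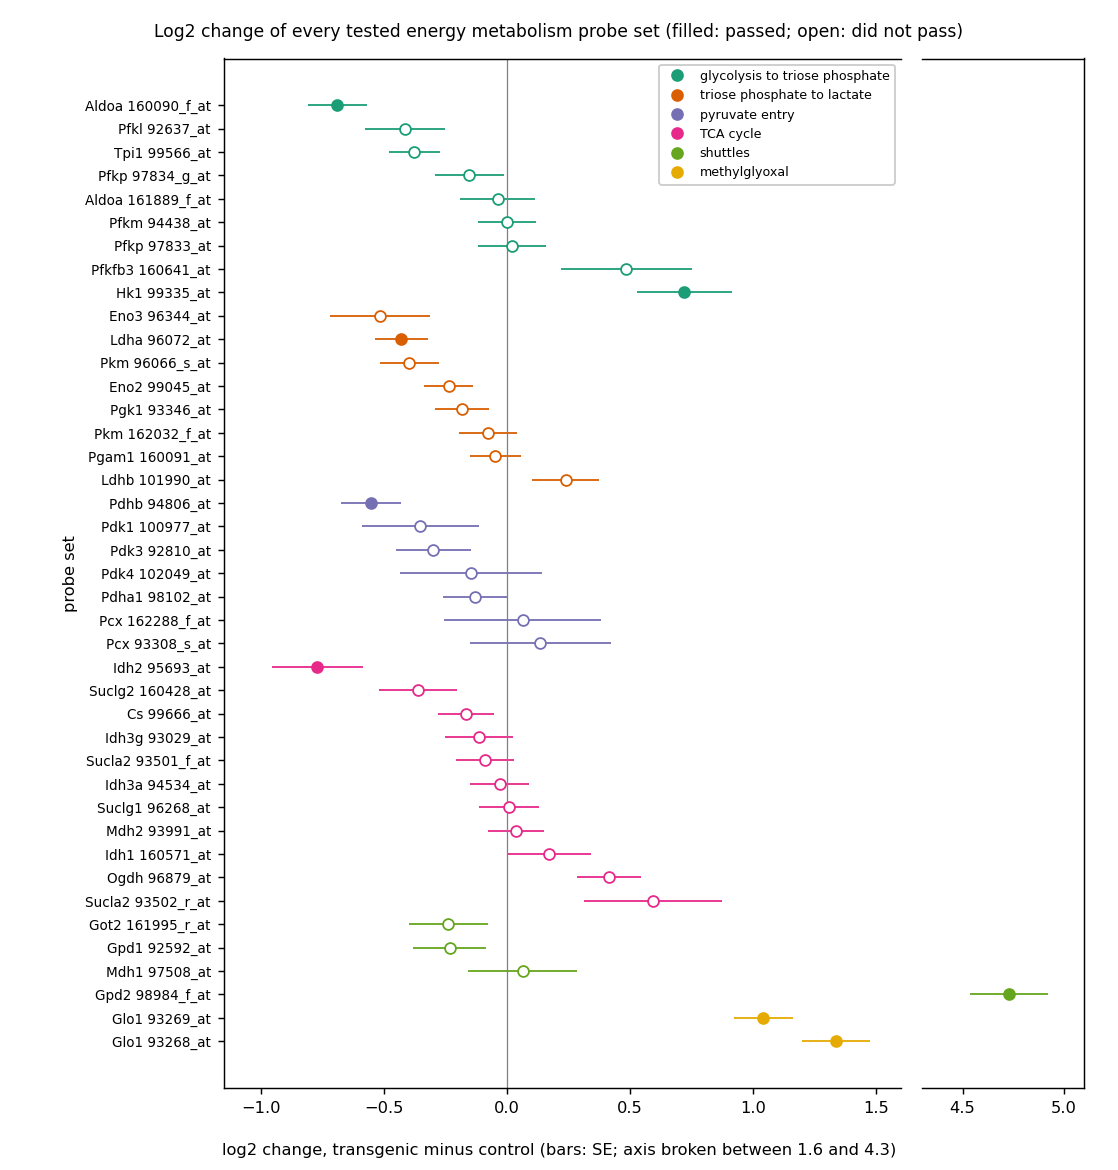
Log2 change (transgenic minus control) of the 41 tested energy metabolism probe sets, with SE bars, grouped and coloured by step of the pathway, filled where the test passed and open where it did not. The horizontal axis is broken between 1.6 and 4.3 to hold Gpd2 at 4.73, and in each step but the methylglyoxal one the points lie on both sides of 0.

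In the malate-aspartate shuttle the cytosolic malate dehydrogenase Mdh1 had a log2 change of 0.06 ± 0.22. The mitochondrial transaminase Got2 had -0.24 ± 0.16 at 161995_r_at, with overlapping groups, while its other probe set read 11.9 or less on every array. Neither passed. The cytosolic transaminase Got1 read 4.5 or less on every array, below the floor. In all, 14 ordinary probe sets fell under the intensity filter, with intensities from 0.3 to 38.8, and 8 of these lay at or below the floor on every array. With the Gapdh control probe sets set aside, 8 of the 43 genes had no tested probe set, namely Aco1, Gapdh, Got1, Hk2, Idh3b, Ldhc, Pdha2 and Pfkfb2.

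Proximal promoter sequences are shown for the genes with the largest rises, Gpd2 and Glo1, and for 2 of the genes that fell, Ldha of the lactate step and Pdhb of pyruvate entry. Each is the 250 bases before the outermost listed start site, from RefSeq on GRCm38.p6, written 5' to 3' on the gene's strand. Capitals mark exact matches on either strand to ACGTG (the core bound by hypoxia-inducible factors and by E-box factors), CCAAT or GGGCGG (the GC box). The RNA start used in these samples was not measured.
Gpd2, chr2:57237428-57237677, plus strand: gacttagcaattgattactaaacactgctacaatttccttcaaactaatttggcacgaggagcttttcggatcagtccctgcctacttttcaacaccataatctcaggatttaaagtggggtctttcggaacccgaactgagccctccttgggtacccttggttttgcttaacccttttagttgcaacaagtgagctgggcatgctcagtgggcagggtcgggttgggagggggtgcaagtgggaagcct
Glo1, chr17:30612660-30612909, minus strand: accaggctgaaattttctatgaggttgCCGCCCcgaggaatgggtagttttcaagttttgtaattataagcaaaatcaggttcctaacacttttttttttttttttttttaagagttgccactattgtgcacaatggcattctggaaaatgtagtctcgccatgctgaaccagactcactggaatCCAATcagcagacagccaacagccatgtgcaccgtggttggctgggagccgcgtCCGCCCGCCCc
Ldha, chr7:46845554-46845803, plus strand: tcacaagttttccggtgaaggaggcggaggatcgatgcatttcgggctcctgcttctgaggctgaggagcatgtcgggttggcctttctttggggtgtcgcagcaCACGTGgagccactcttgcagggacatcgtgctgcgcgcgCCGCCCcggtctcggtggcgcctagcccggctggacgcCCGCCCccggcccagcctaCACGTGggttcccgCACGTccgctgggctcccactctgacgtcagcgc
Pdhb, chr14:8172993-8173242, minus strand: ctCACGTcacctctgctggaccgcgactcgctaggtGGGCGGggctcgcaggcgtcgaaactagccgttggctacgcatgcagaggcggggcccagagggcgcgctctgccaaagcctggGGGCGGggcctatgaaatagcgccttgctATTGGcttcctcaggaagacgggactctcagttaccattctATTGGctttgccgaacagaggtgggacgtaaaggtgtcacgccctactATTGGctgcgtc

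Of 32851 RefSeq promoter windows of that length, 16.6% held ACGTG, 33.8% held CCAAT and 32.7% held GGGCGG on either strand. The Ldha window held 5 matches to ACGTG, since each palindromic CACGTG matches on both strands, and 2 to GGGCGG, and the window before its other listed start held none of the 3. The Pdhb window held 1 match to ACGTG, 3 to CCAAT and 2 to GGGCGG. The Glo1 window held 0 matches to ACGTG, 1 to CCAAT and 3 to GGGCGG, of which 2 overlap. The outermost Gpd2 window held none of the 3, and the window before its other listed start held 1 match to ACGTG and 1 to GGGCGG. Among the genes that passed but are not printed, both listed Hk1 windows held none of the 3. The outermost Aldoa window also held none. The windows before its other listed starts each held 1 match to ACGTG and 1 to CCAAT, with 2 and 3 to GGGCGG. The Idh2 window held 0 matches to ACGTG, 1 to CCAAT and 2 to GGGCGG. No comparison of these letters between genes that rose and genes that fell was made.

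Other genes of glucose use were read from 8 lists of transporters, further isoforms and neighbouring pathways. Of the 100 listed genes 71 were on the array, 57 of their probe sets were tested, and limma passed 0 as higher and 2 as lower, or 3.51% lower against 4.56% of all tested probe sets. At an unadjusted p under 0.05 it called 9 of the 57, or 15.8%, against 24.3% of all tested probe sets. The fall in Slc25a10, a mitochondrial carrier that exchanges dicarboxylates such as malate, was the larger. It read 135.4 and 128.4 in control samples, and 43.7 and 50.8 in transgenic samples (2.80-fold, log2 change -1.48 ± 0.26, adjusted p = 0.00655). The intracellular glucose transporter Slc2a8 read 419.2 and 372.6 on the control arrays, and 259.8 and 239.3 on the transgenic ones (1.59-fold, log2 change -0.66 ± 0.16, adjusted p = 0.0281). In both genes the groups were apart, and the transgenic values of Slc25a10 lay around the intensity filter.

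The main glucose transporters of the brain did not pass. Slc2a1, the form of the blood-brain barrier and glia, read 398.8 and 463.8 on the control arrays against 357.5 and 337.2 on the transgenic arrays, a log2 change of -0.31. Slc2a3, the neuronal form, had -0.52 and -0.18 at its 2 probe sets. Of 10 tested probe sets for glycogen metabolism, 6 for the pentose phosphate pathway and 3 for gluconeogenesis, limma passed 0 in either direction, and called 2, 1 and 0 in turn at an unadjusted p under 0.05. The closest was Tkt, the transketolase of the pentose phosphate pathway, at 954.3 and 912.8 in control samples, and 695.5 and 663.1 in transgenic samples (log2 change -0.46, adjusted p = 0.0506). Subunits of succinate dehydrogenase and of the dehydrogenase complexes, together with fumarate hydratase (Fh1), had 9 tested probe sets. These gave 0 calls in limma (2 at an unadjusted p under 0.05), with Sdha at 0.29 and Sdhc at -0.23. The dihydrolipoamide subunits Dlat and Dld, which work with Pdhb in the pyruvate dehydrogenase complex, had 0.43 and 0.28 and did not pass (adjusted p = 0.174 and 0.275).

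Markers of the cells in the tissue were read beside these values. Over all tested probe sets 5.46% were higher and 4.56% lower, and the marker counts were not tested against these shares. Neuronal markers were bright, with a summed intensity of 24192 to 25127 in the control pools and 19087 to 20274 in the transgenic pools. Of 11 tested neuronal probe sets 0 were higher and 2 lower (Snap25 and Camk2a). The transgenic values of Camk2a, 31.2 and 62.9, lay around the intensity filter. Nefh, Nefl, Nefm, Neurod6, Nrgn, Stmn2, Syt1 and Thy1 did not pass, with log2 changes from -0.47 (Syt1) to 0.28 (Nefl). The part of neuronal content in the falls of Aldoa, Ldha, Pdhb and Idh2 was not tested. Astrocyte markers summed to 9239 to 9525 in the control pools and 9929 to 10874 in the transgenic pools, with 3 of 12 probe sets higher and 1 lower. The rises were 2 probe sets of Aqp4 and 1 of Fabp7, and the fall was S100b. Control values of both Aqp4 probe sets lay under the intensity filter, so these were tested only because of their transgenic values. Gfap, Gja1, Glul, Slc1a2 and Aldoc did not pass. Red cell markers, of which 2 of 5 listed genes were on the array under a single name, summed to 2396 to 2779 in the control pools and 6945 to 8473 in the transgenic pools. Both (Hba-a1 and Alas2) were higher, and the part of blood in the rises of Glo1 and Hk1 was not tested. Of the tested oligodendrocyte and microglial probe sets 1 of 11 (Mobp) and 1 of 10 (Tyrobp) were lower. Endothelial markers summed to 762 to 773 and 1114 to 1182, with 2 of 6 probe sets higher and 0 lower, both of Flt1. For 1 of these Flt1 probe sets the control values, 17.0 and 19.5, lay under the floor. That probe set was tested only because of its transgenic values, 169.8 and 152.8. Skeletal muscle markers, relevant to the muscle forms of enolase and phosphofructokinase, summed to 521 to 551 and 547 to 555 and gave 0 calls of 5 in limma, adjusted or not. Choroid plexus markers summed to 64 to 106 over all 4 arrays and were not tested.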

How the data were processed

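RNA from pooled prefrontal cortex was measured on 4 single-channel arrays, 2 per group, grouped by sample title. The deposited table holds 1 linear intensity per probe set and array. No label or header names the tool or build, so the unit was read from the values, and nearly equal trimmed means (249.5 to 249.6) show that the authors had scaled the arrays. No further normalization was applied. Gene names came from the platform annotation, and all 65 symbols matched the RefSeq table of GRCm38.p6. Members and lists were chosen with earlier results of these data known.

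The 66 control probe sets were left out of the fit. Values were floored at the 25th percentile (19.675) and log2-transformed, and probe sets with a mean above the 40th percentile were tested (7453 of 12422) with limma 3.58.1 in R 4.3.3 (lmFit, eBayes with trend, two-sided, Benjamini-Hochberg). Folds were taken from the fitted log2 changes. SEs come from that fit, with 2 residual degrees of freedom, and SDs from 2 pools. With 2 against 2 an exact permutation test cannot go below p = 0.333. The number of arrays limits the precision. The fit was also run on simulated data that gave every probe set the same SD, so that run cannot test the intensity trend.

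Named by rule were members that passed, all probe sets of their genes, members changed by over 1 on the log2 scale, probe sets of Hk1, Pfkm, Pfkl, Pfkp, Pkm, Pdha1, Cs, Idh3a, Ogdh, Gpd1, Gpd2 and Glo1, control probe sets, and listed pathway genes that passed. Other genes were named after their values were seen. Alternatives covered scaling, floor, filter, variance prior, replicate block, probe sets per gene, control probe sets and each array left out, with the filter recomputed on the arrays left in.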

Additional observations from a re-analysis of the deposited data

How the results depend on the processing

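Gpd2 passed under all 16 alternative settings other than the scaling to Gapdh, and both Glo1 probe sets under each of them that tested them except the one without the intensity filter. Scaling by the median or by quantiles, floors at the 10th or 40th percentile, log2(value + 16) in place of a floor, the 60th percentile filter, the robust prior and 1 probe set per gene gave 7 to 10 passing energy metabolism probe sets, against 8. With control probe sets kept, 4 were higher and 7 lower, since Gapdh 5' and M and Pcx MB passed beside the 8. Hk1 was the least stable rise: it was lost with quantile scaling (adjusted p = 0.0530), the higher floor (0.0615) and the robust prior (0.0679). Without the filter 1 was higher and 0 lower, and 48 probe sets passed in all. Without the intensity trend 0 were lower and 395 passed in all. With Aldoa, Ldha, Pdhb and Idh2 as the 4 falls of the full fit, leaving out 1 array gave 0 to 3 lower and 3 to 4 higher, with 387 to 745 passing in all. Scaled to Gapdh, a setting chosen after the data were seen, 16 were higher and 0 lower, 2305 passed in all, and Idh3a (0.38), Pgam1 (0.37) and Pkm at 162032_f_at (0.34) changed sign and passed. Over those 16 settings 24 sign changes concerned probe sets called in neither setting.

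The replicate number shared by the titles is not said to pair the pools. Same-numbered pools did not deviate together (r = 0.04 across probe sets, which are not independent replicates). With the replicate block 4 energy metabolism probe sets passed as higher and 6 as lower, the 8 of the full fit with Tpi1 and Pkm at 96066_s_at added, and 892 passed in all.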
